A study of Mus musculus with 12 samples.

Results

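Genes of ER-associated degradation (ERAD) were followed across 5 groups of mouse antibody-secreting cells. The genes were chosen by name from a list of 39 symbols, of which 37 were found among the 24189 gene names shared by all 10 RNA-seq files, and *Hm13* and *Fam8a1* were not found under those names. Plasmablasts (PBs) were grown from splenic B cells of C57BL/6 mice for 8 days in the iGB system, in which B cells divide and differentiate on 40LB feeder cells with IL-4 and then IL-21, and were sorted by surface markers that include CD138. They carried *Xbp1* fl/fl without Cre (control), *Cd23*-Cre *Xbp1* fl/fl (Xbp1-deficient) or *Bhlha15* CreER/CreER, in which CreER is inserted in the gene that encodes Mist1. Plasma cells (PCs) were isolated by their TACI+CD138+ phenotype from spleens of C57BL/6 mice 7 days after immunization with NP-KLH, and were either labelled wild type (control, *Bhlha15* fl/fl in the study's sample table) or carried *Cd23*-Cre *Bhlha15* fl/fl (Mist1-deficient). *Cd23*-Cre starts to delete in immature B cells and deletes efficiently in mature B cells, so that deletion precedes differentiation in both conditional genotypes, while the CreER allele is present in all cells. Each group has 2 libraries, which the study describes as independent experiments for all groups but *Bhlha15* CreER/CreER. The labels do not say whether they came from separate mice or cultures, so that p-values measure the spread between these libraries only. Mist1 binding was mapped in 2 Bio-ChIP-seq experiments with LPS-stimulated PBs of *Bhlha15* fl/fl *R26* BirA/BirA mice after 4 days, whose *Bhlha15* allele carries a biotin acceptor tag.

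ERAD removes proteins that fail to fold in the ER. Mannosidase-like proteins and lectins recognize the trimmed sugars of such a protein, a membrane complex built around the ubiquitin ligase Hrd1 moves it through the ER membrane and marks it with ubiquitin, and the ATPase p97 pulls it into the cytosol, where the proteasome degrades it. Antibody-secreting cells push large amounts of immunoglobulin through the ER, and many ERAD genes are known targets of the unfolded protein response (UPR) and its transcription factor Xbp1.

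Values are TPM, the number of transcripts of a gene per 1000000 transcripts, which are corrected for gene length, so that levels of different genes can be compared. Every library sums to the same total, and the number of reads behind a value is unknown. For tests, the TPM were scaled by a median of ratios, since the median gene was 0.21 higher on the log2 scale in the deposited TPM of Xbp1-deficient PBs than in those of control PBs and 0.0041 higher after scaling. limma was fitted to the log2 of scaled TPM plus 0.1 over all genes with at least 1 TPM in 2 libraries of a model, and p-values were adjusted by the Benjamini-Hochberg method over these genes. A gene passed at an adjusted p under 0.05, and was called when it also differed more than 3-fold with a mean above 5 TPM in the higher group. *Svip*, which encodes an inhibitor of ERAD that binds p97, stayed between 0.112 and 1.31 TPM and was not tested, which leaves 36 tested genes. *Syvn1*, *Ngly1*, *Stub1*, *Ube2j2* and *Ubxn8* carry a suffix in the files that reads as a mark of overlap with a neighbouring gene, and the sources used here do not give the strand setting of the counting, so that reads of a neighbour cannot be told apart in their values.

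The RNA of *Bhlha15* was low wherever the gene was targeted. *Bhlha15* was at 176 and 159 TPM in control PBs, 3.57 and 2.60 TPM in Xbp1-deficient PBs and 0.210 and 0.551 TPM in *Bhlha15* CreER/CreER PBs, and at 258 and 242 TPM in control PCs and 14.4 and 16.6 TPM in Mist1-deficient PCs. *Xbp1* was at 3168 and 3043 TPM in control PBs and 1981 and 2024 TPM in Xbp1-deficient PBs, a value for the whole gene. No value for single exons was at hand, so that the *Xbp1* deletion itself was not checked. The 8 plasma cell markers, *Xbp1* among them, were above 1 TPM in every group. Their sum was 19562 to 20389 TPM in control PBs and 7515 to 7564 TPM in Xbp1-deficient PBs, and *Mzb1*, at 15573 and 14995 TPM and 3707 and 3547 TPM, and *Xbp1* account for nearly all of the difference. *Sdc1*, which encodes CD138, was at 166 and 157 TPM and 157 and 157 TPM, and *Irf4* at 683 and 651 TPM in control and 865 and 971 TPM in Xbp1-deficient PBs. A list of 8 fibroblast genes, which the feeder cells may express, summed to 1283 to 1547 TPM in control, 1794 to 1960 TPM in Xbp1-deficient and 999.6 to 1710 TPM in *Bhlha15* CreER/CreER PBs, and to 18.6 to 22.8 TPM in PCs. Of the T cell list, *Cd3d*, *Cd3e*, *Cd4*, *Cd8a* and *Il7r* were under 1 TPM in all PB groups.

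In Xbp1-deficient PBs, most ERAD genes were expressed at a lower level than in control PBs. Of the 36 genes tested, 24 fell (66.7%), 3 rose and 9 did not pass, while 18.0% of all 12125 genes fell and 10.3% rose. The genes called at more than 3-fold were *Edem2*, *Vimp*, *Os9*, *Edem3* and *Selk*, all lower, and 1.63% of all genes were called lower. The median log2 fold change of the 36 genes was -0.68, with a range from -2.80 to 0.40. Together the 37 genes took 1.08% and 1.06% of all TPM in control PBs and 0.607% and 0.642% in Xbp1-deficient PBs. In bulk samples, fewer cells of a type and less RNA per cell cannot be told apart. Both Xbp1-deficient libraries were below both controls after scaling in 28 of the 36 tested genes and in 35.5% of all genes. The fold changes by role are shown in the plot of both mutant genotypes against control PBs.

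**Figure D1:**
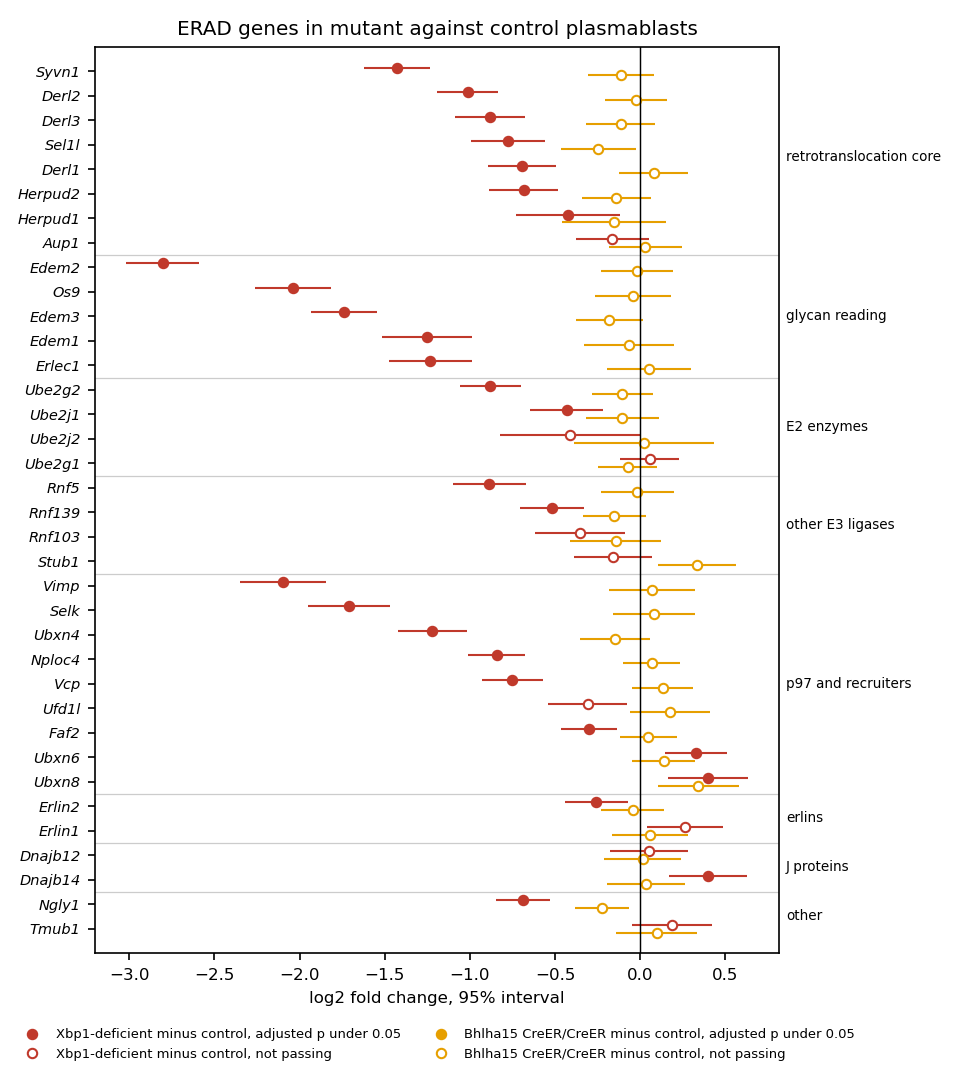
Log2 fold changes of 36 ERAD genes (x axis) with 95% intervals in Xbp1-deficient (red) and *Bhlha15* CreER/CreER (orange) against control PBs, 2 libraries per group, grouped by role, with filled points for an adjusted p under 0.05. The red points of the glycan-reading genes lie between -2.80 and -1.23, and no orange point is filled.

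The genes that read glycans had the largest falls of all roles. All 5 passed with a median log2 fold change of -1.74. *Edem2*, whose protein starts the mannose trimming that marks a misfolded glycoprotein, was at 844 and 809 TPM in control PBs, 137 and 137 TPM in Xbp1-deficient PBs and 783 and 799 TPM in *Bhlha15* CreER/CreER PBs. Only the Xbp1-deficient libraries were low, and the fall was 6.98-fold, a log2 fold change of -2.80 in limma (SE 0.093, adjusted p = 6.04e-07), the largest of the 36 genes. *Edem3*, which encodes another mannosidase of this kind, was at 146 and 139 TPM and 46.7 and 51.9 TPM in control and Xbp1-deficient PBs and fell 3.34-fold. *Edem1*, the member of this family that delivers substrates to the ligase complex, was the most highly expressed ERAD gene in control PBs with 1776 and 1705 TPM. It was at 789 and 905 TPM in Xbp1-deficient PBs and fell 2.38-fold, a smaller fold than that of its relatives.

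*Os9* and *Erlec1* encode the lectins that hand trimmed glycoproteins to the ligase complex. *Os9* was at 803 and 755 TPM in control PBs and 218 and 219.8 TPM in Xbp1-deficient PBs, with 727 and 741 TPM in *Bhlha15* CreER/CreER PBs. Its fall was 4.11-fold, with a log2 fold change of -2.04 in limma (SE 0.097, adjusted p = 3.06e-06). *Erlec1* was at 205 and 199 TPM and 99.5 and 98.7 TPM in control and Xbp1-deficient PBs and fell 2.35-fold. For both lectins, each Xbp1-deficient library was below every library of the other PB genotypes.

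Of the 8 genes of the retrotranslocation core, 7 fell, with a median log2 fold change of -0.73. *Syvn1*, which encodes the ligase Hrd1, was at 458 and 443 TPM in control PBs, 184 and 203 TPM in Xbp1-deficient PBs and 423 and 388 TPM in *Bhlha15* CreER/CreER PBs, and fell 2.69-fold without Xbp1 (log2 fold change -1.43 in limma, SE 0.084, adjusted p = 8.20e-06). *Sel1l*, the adaptor that stabilizes Hrd1, was at 434 and 409 TPM in control and 268 and 301 TPM in Xbp1-deficient PBs and fell 1.71-fold. The ligase thus changed by more than its adaptor, although the difference between both genes was not tested.

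The derlins are membrane proteins of the channel through which substrates leave the ER. *Derl3* was at 584 and 580.0 TPM in control and 357 and 372 TPM in Xbp1-deficient PBs, *Derl1* at 375 and 367 TPM and 261 and 269 TPM. *Derl2*, the least expressed of the derlins, was at 83.4 and 87.6 TPM and 46.9 and 50.8 TPM. All 3 fell, by 1.84-fold for *Derl3*, 1.62-fold for *Derl1* and 2.02-fold for *Derl2*, so that the spread among the derlins was narrower than among the mannosidase-like genes.

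*Herpud1* and *Herpud2* encode ubiquitin-like membrane proteins that assemble with the Hrd1 complex. *Herpud1* was at 1607 and 1682 TPM in control, 1364 and 1471 TPM in Xbp1-deficient and 1335 and 1539 TPM in *Bhlha15* CreER/CreER PBs. As deposited, the Xbp1-deficient libraries lay below the controls and overlapped those of *Bhlha15* CreER/CreER PBs. The scaled log2 fold change was -0.42 in limma (SE 0.13, adjusted p = 0.0457), and the adjusted p exceeded 0.05 in 8 of 15 alternatives. *Herpud2* was at 55.7 and 58.2 TPM and 38.1 and 44.0 TPM in control and Xbp1-deficient PBs and fell 1.61-fold. *Aup1*, which recruits the enzyme Ube2g2 to the ligase, was at 429.7 and 432 TPM in control and 446 and 443 TPM in Xbp1-deficient PBs. It was the core gene that did not pass (log2 fold change -0.16 in limma, SE 0.093, adjusted p = 0.231), and the sign of its value changed with the scaling, to 0.044 in TPM as deposited.

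**Figure D2:**
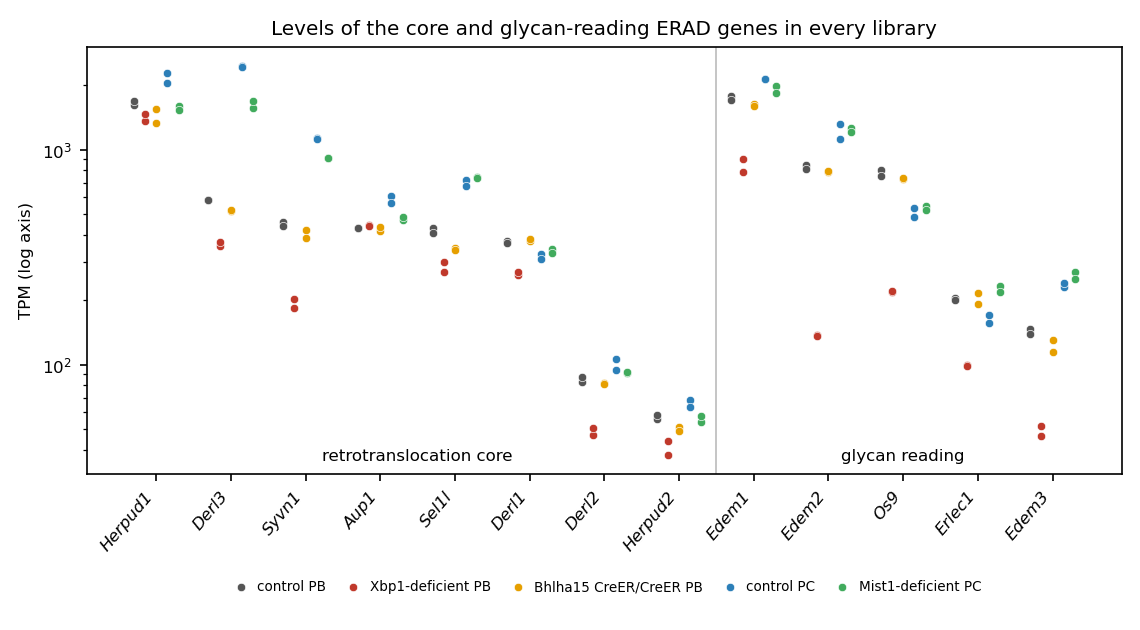
TPM (log axis) of the 8 core and 5 glycan-reading genes in each of the 10 libraries, a point per library, colored by group (PB, plasmablast, PC, plasma cell). The Xbp1-deficient points lie lowest of all groups for each gene but *Herpud1* and *Aup1*, and the control PC points of *Derl3*, at 2436 and 2416 TPM, lie highest for that gene.

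The promoters of the ERAD genes were searched for the elements through which the UPR acts. Windows from 250 bases before to 50 bases after the transcription start site were taken from RefSeq (GRCm38.p6) for 29 of the 37 genes, with *Vimp*, *Selk* and *Ufd1l* matched by the newer symbols *Selenos*, *Selenok* and *Ufd1*. *Derl1*, *Erlec1*, *Aup1*, *Ube2g2*, *Ubxn8*, *Rnf5*, *Rnf139* and *Erlin2* had no entry. Both strands were searched. The ER stress response element ERSE is CCAAT, then 9 bases, then CCACG. It was found in *Syvn1* and *Derl3*, 2 of 29 genes (6.9%), and in 0.137% of all 27025 genes with a window. ERSE-II, which is ATTGG, then 1 base, then CCACG, was found in *Herpud1* and in 0.0444% of all genes. The core of the UPR element, TGACGTG, was found in *Ube2j1* and *Vcp* and in 2.22% of all genes. The E-box CAGCTG is a sequence that basic helix-loop-helix proteins such as Mist1 can bind. It was found in *Syvn1*, *Ube2g1* and *Tmub1*, 10.3% of the 29 genes, and in 18.3% of all genes.

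The 250 bases before the start site are shown for the genes with an ERSE or ERSE-II and for *Edem2*, the gene with the largest fall, in whose window none of the 4 motifs was found. Capitals mark the ERSE near the start site and the adjacent pair of E-boxes in *Syvn1* (chr19:6046326-6046575, plus strand), the ERSE in reverse orientation in *Derl3* (chr10:75893148-75893397, plus strand) and the ERSE-II in *Herpud1* (chr8:94386179-94386428, plus strand). The window of *Edem2* (chr2:155729476-155729725, minus strand) has no capitals.
Syvn1: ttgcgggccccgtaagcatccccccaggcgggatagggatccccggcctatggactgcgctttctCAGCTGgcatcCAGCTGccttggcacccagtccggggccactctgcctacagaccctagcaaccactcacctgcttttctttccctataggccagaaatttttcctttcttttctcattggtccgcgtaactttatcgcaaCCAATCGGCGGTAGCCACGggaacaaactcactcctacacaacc
Derl3: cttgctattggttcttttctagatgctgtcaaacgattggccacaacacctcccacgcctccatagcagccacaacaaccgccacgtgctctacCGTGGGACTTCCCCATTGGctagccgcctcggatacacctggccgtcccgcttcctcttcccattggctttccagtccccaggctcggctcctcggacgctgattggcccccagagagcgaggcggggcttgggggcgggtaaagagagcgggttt
Herpud1: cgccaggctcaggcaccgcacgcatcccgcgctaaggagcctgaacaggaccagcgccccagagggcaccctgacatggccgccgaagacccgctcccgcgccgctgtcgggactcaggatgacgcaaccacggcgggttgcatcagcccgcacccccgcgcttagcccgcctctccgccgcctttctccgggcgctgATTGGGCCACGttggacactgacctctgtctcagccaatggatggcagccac
Edem2: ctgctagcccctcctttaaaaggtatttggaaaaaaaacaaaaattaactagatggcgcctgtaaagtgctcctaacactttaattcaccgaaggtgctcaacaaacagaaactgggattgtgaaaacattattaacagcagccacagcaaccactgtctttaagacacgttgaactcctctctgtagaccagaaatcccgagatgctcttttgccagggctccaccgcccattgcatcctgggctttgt
The center of the ERSE lies 35 bases before the start site in *Syvn1* and 147 bases before it in *Derl3*, and that of the ERSE-II lies 47 bases before it in *Herpud1*. The GC content of these stretches is 56.4%, 60.8%, 69.2% and 44.4% in the order shown. A match is a description of the sequence, and no match means only that these letters are not in this window.

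The genes that connect ERAD to p97 ranged from strong falls to small rises in Xbp1-deficient PBs. Of 9 tested genes, 6 fell and 2 rose. *Vimp*, which is not vimentin but a selenoprotein that anchors p97 at the ER membrane, was at 676 and 677 TPM in control, 174 and 192 TPM in Xbp1-deficient and 657 and 726 TPM in *Bhlha15* CreER/CreER PBs. The Xbp1-deficient libraries stood far below the others, and the fall was 4.27-fold (log2 fold change -2.09 in limma, SE 0.11, adjusted p = 4.96e-06). *Selk*, another selenoprotein of the same membrane complex, was at 464 and 475 TPM in control and 163 and 168 TPM in Xbp1-deficient PBs and fell 3.27-fold. *Ubxn4*, which encodes the ER membrane protein erasin that binds p97, was at 205 and 205 TPM and 99.8 and 103 TPM and fell 2.33-fold.

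The ATPase itself had a smaller fold change than its membrane anchors, a difference between genes that was not tested. *Vcp*, which encodes p97, was at 192 and 186 TPM in control and 129 and 129 TPM in Xbp1-deficient PBs and fell 1.68-fold. Its cofactor *Nploc4* fell 1.79-fold, while the partner of that cofactor, *Ufd1l*, was at 109 and 112 TPM and 102 and 104 TPM and did not pass (log2 fold change -0.31 in limma, SE 0.10, adjusted p = 0.0542). *Faf2*, a p97 receptor on the ER and on lipid droplets, fell 1.23-fold. *Ubxn6* and *Ubxn8*, which encode other UBX domain proteins that bind p97, rose 1.25-fold and 1.32-fold, with means of 63.5 and 15.3 TPM in control PBs.

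Among the ubiquitin-conjugating enzymes, *Ube2g2* fell 1.84-fold and *Ube2j1*, a tail-anchored enzyme of the ER membrane, fell 1.35-fold from 387 and 371 TPM in control to 329.6 and 319 TPM in Xbp1-deficient PBs. *Ube2j2* and *Ube2g1* (log2 fold changes -0.41 and 0.056) did not pass. *Ube2j1* thus had much higher values than *Ube2j2*, which was between 4.96 and 6.77 TPM in all libraries. *Ube2j2* carries the overlap suffix, so that its value may not give the level of the gene alone. Of the other ubiquitin ligases, *Rnf5*, which encodes a ligase of the ER membrane, was at 151 and 145 TPM and 87.5 and 97.5 TPM in control and Xbp1-deficient PBs and fell 1.85-fold. *Rnf139*, whose protein Trc8 is a ligase of the ER membrane, was at 38.0 and 39.2 TPM and 29.9 and 32.3 TPM and fell 1.43-fold. *Rnf103*, another membrane ligase, and *Stub1*, which encodes the cytosolic ligase CHIP, did not pass, with log2 fold changes of -0.35 and -0.16.

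The remaining genes were the erlins, the J proteins, *Ngly1* and *Tmub1*. *Erlin1* and *Erlin2* encode a ring-shaped membrane complex that brings substrates to ligases. *Erlin1* was at 27.6 and 28.3 TPM in control and 42.1 and 35.6 TPM in Xbp1-deficient PBs and did not pass (log2 fold change 0.26 in limma, SE 0.098, adjusted p = 0.0825), while *Erlin2* fell 1.20-fold. Of the J proteins of the ER membrane, *Dnajb14* rose 1.32-fold and *Dnajb12* did not pass (log2 fold change 0.050). *Ngly1*, whose protein removes N-glycans from proteins that reached the cytosol, was at 63.2 and 66.7 TPM and 47.0 and 46.2 TPM and fell 1.61-fold. *Tmub1*, a ubiquitin-like membrane protein, did not pass (log2 fold change 0.19).

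The count of genes that rose without Xbp1 depends on the scaling and on single libraries. It was 7 in TPM as deposited and 5 after quantile normalization, and 21 genes fell under each of these scalings. Of all genes that passed, 63.6% were lower after median scaling, 28.4% in TPM as deposited and 43.9% after quantile normalization. The count of genes that rose was 0 without control PB replicate 2 and 1 without control PB replicate 1 or without either Xbp1-deficient library, and 20 to 26 genes fell when any 1 library was left out. *Erlin2*, *Herpud1* and *Faf2*, among the genes that fell, exceeded an adjusted p of 0.05 in 8, 8 and 6 of 15 alternatives.

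Markers of other cells also differed between the PB genotypes. The 8 neutrophil markers summed to 10.3 to 11.6 TPM in control and 133 to 135 TPM in Xbp1-deficient PBs. *S100a8* was at 1.72 and 2.45 TPM in control and 45.7 and 43.6 TPM in Xbp1-deficient PBs. *S100a9*, *Ngp*, *Camp*, *Ltf* and *Lcn2* were also higher in both Xbp1-deficient libraries, while *Mmp8* and *Elane* were under 1 TPM in both groups. The macrophage list summed to 135 to 137 TPM and 32.6 to 35.5 TPM, a difference carried by *Cd68* (128 and 131 TPM and 16.9 and 18.7 TPM), while *Lyz2* was at 5.86 and 5.22 TPM and 15.1 and 15.8 TPM, with *Csf1r*, *Emr1*, *C1qa*, *C1qb*, *Cd14* and *Mrc1* under 1 TPM in both. The T cell list summed to 42.4 to 50.5 TPM and 113 to 123 TPM, a difference carried by *Thy1* (33.8 and 40.2 TPM and 109 and 103 TPM), and the mature B cell list to 950.3 to 984 TPM and 1054 to 1119 TPM. The part of these markers and of the fibroblast genes in the changes of ERAD genes was not tested.

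Beyond the 37 genes, a wider list of 62 genes of glycan trimming and chaperones, further membrane ligases and cytosolic handling was examined. Of 61 tested, 31 fell and 5 rose without Xbp1, while 18.0% of all genes fell and 10.3% rose. The median of the 61 genes was -0.27 on the log2 scale. The glycan and chaperone group held most of the falls, with 17 of 20 genes, a median of -1.08 and no rise, while 7 of 16 membrane ligase genes and 7 of 25 cytosolic genes fell. In that group, *Man1a2* and the chaperone genes *Hspa5* and *Hsp90b1* did not pass, with log2 fold changes of 0.061, 0.10 and 0.25. The largest changes were those of ER co-chaperones and glycan-processing genes. *Dnajb9*, whose J protein assists disposal of misfolded proteins with BiP, was at 308 and 304 TPM in control and 26.7 and 32.7 TPM in Xbp1-deficient PBs, a log2 fold change of -3.58 (SE 0.10). The J protein genes *Dnajc3* and *Dnajb11* had log2 fold changes of -3.40 and -2.99. *Mogs*, the glucosidase that starts glycan trimming, had a log2 fold change of -2.54, *Uggt1*, the sensor that returns unfolded glycoproteins to the chaperones, of -2.12, and *Sdf2l1*, a partner of J proteins, of -2.04.

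Loss of Mist1 alone in PBs gave no ERAD gene that passed. In *Bhlha15* CreER/CreER PBs, 0 of 36 genes passed in limma, where 0.322% of all genes did, and 4 genes had an unadjusted p under 0.05, as had 1267 of all 12125 genes. They were *Sel1l*, *Ngly1*, *Stub1* and *Ubxn8*. The median log2 fold change was -0.019, the values ranged from -0.25 for *Sel1l* to 0.34 for *Ubxn8*, and the 95% intervals of all 36 genes lay between -0.46 and 0.58. *Sel1l* was at 349 and 341 TPM, below both control libraries, with an interval from -0.46 to -0.026. For *Edem2*, the interval of -0.23 to 0.19 lies far from its change in Xbp1-deficient PBs, and for *Vimp* it was -0.18 to 0.32. None of the 61 tested genes of the wider list passed in this comparison either. The 37 genes took 0.987% and 1.02% of all TPM in these PBs.

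Since Xbp1-deficient PBs also had little *Bhlha15* RNA, they were compared directly with *Bhlha15* CreER/CreER PBs. Of 36 genes, 24 were lower in Xbp1-deficient PBs and 1, *Dnajb14*, was higher, while 17.8% of all genes were lower and 9.34% higher, and the median log2 fold change was -0.51. *Edem2*, *Vimp*, *Os9* and *Selk* were called, at 6.89-fold, 4.49-fold, 3.99-fold and 3.46-fold lower levels, and 1.66% of all genes were called lower. *Edem3* (log2 fold change -1.56) and *Syvn1* (log2 fold change -1.32) followed. *Herpud1* did not pass, with a log2 fold change of -0.27 in limma (SE 0.13, adjusted p = 0.175). This comparison shares the Xbp1-deficient libraries with the one against control PBs, so that the comparisons are not independent of each other. The median was -0.26 in TPM as deposited, in which the median gene was 0.26 higher in Xbp1-deficient PBs, and 7 genes were then higher. Of all genes that passed, 65.6% were lower after median scaling, 24.1% in TPM as deposited and 44.4% after quantile normalization. Of the wider list, 28 of 61 genes were lower and 4 higher. *Dnajb14* no longer passed when any library other than *Bhlha15* CreER/CreER replicate 2 was left out.

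Most ERAD genes had a Mist1 region at a start site. Peaks of both Bio-ChIP-seq experiments, 29413 and 30247 on mm9, were merged to 23806 common regions where they shared at least 1 base, and were compared with every start site of a coding transcript in GENCODE M1. A common region lay within 1 kb of a start site in 29 of 37 ERAD genes (78.4%) and in 63.3% of the 11397 genes that were tested in PBs and matched by name. The peak lists hold positions only, so that binding strength is unknown. Of the 29 genes with a region, 21 fell in Xbp1-deficient PBs and none rose, while 22.9% of the 7210 genes with a region among all genes fell and 10.5% rose. Of the 7 tested genes without one, 3 fell (*Erlec1*, *Nploc4* and *Faf2*) and 3 rose (*Ubxn6*, *Ubxn8* and *Dnajb14*), and *Ube2j2* did not pass. Of all 4187 genes without a region, 460 fell and 454 (10.8%) rose. Medians in *Bhlha15* CreER/CreER PBs were -0.044 on the log2 scale for genes with a region and 0.051 for those without. The counts were 31 within 2.5 kb and 35 with the peaks of either experiment, beside 65.7% and 74.1% of all genes.

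The regions differed in width. That of *Edem1* was the widest of the 29 at 6200 bases (chr6:108776321-108782520), and reached from 2314 bases before the start site to 3885 bases after it. The region of *Syvn1* spanned 4211 bases (chr19:6043996-6048206), that of *Derl3* 3793 bases (chr10:75355637-75359429) and that of *Edem2* 1464 bases (chr2:155554486-155555949). The region of *Erlin2* was the narrowest at 768 bases (chr8:28133999-28134766). In all 29 genes the region covered the nearest start site. Positions in this and the preceding paragraph are of mm9.

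**Figure D3:**
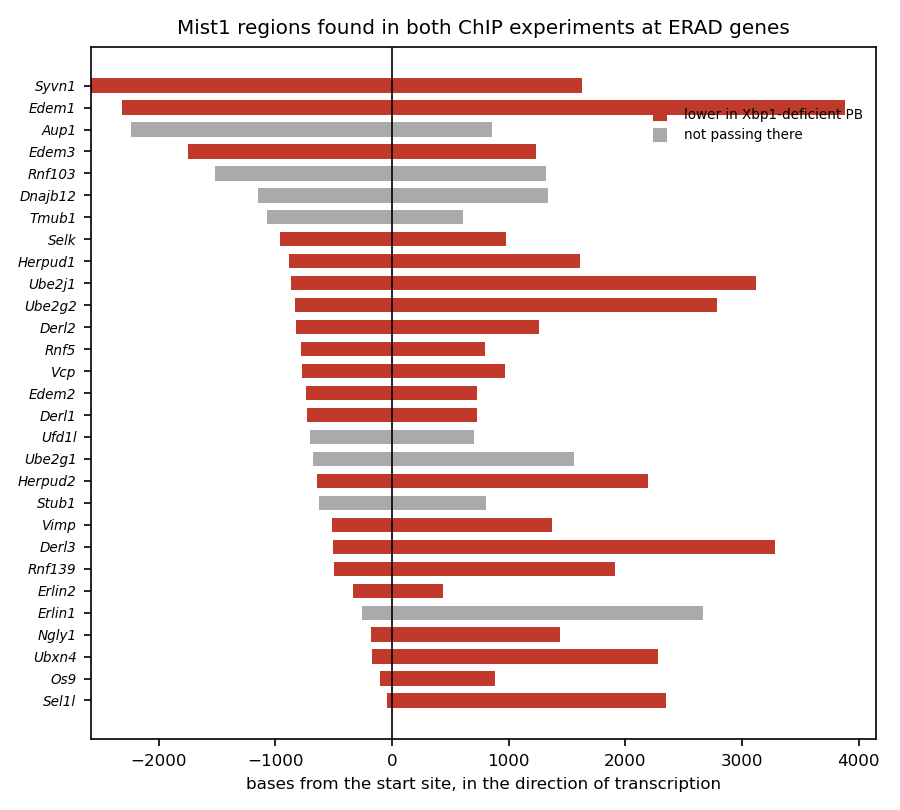
Extent of the common Mist1 region at each of 29 ERAD genes, in bases from the start site along the direction of transcription (x axis, mm9), with genes that fell in Xbp1-deficient PBs in red and genes that did not pass there in grey. Every bar crosses the start site at 0, and the bar of *Edem1* is the widest.

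In PCs from the spleen, loss of Mist1 changed ERAD genes in both directions and by less than 1.5-fold. Of 36 genes, 7 fell, 5 rose and 24 did not pass, while 16.2% of all 12028 genes tested in PCs fell and 13.3% rose, so that the shares of ERAD genes, 19.4% and 13.9%, were near those of all genes. None was called at more than 3-fold, where 0.723% of all genes were called lower and 0.125% higher, and the median log2 fold change was -0.019, with a range from -0.56 to 0.48. The genes that fell were *Derl3*, *Ubxn4*, *Herpud1*, *Rnf139*, *Ngly1*, *Syvn1* and *Aup1*, 4 of them from the core. All 37 genes took 1.57% and 1.51% of all TPM in control PCs and 1.37% and 1.34% in Mist1-deficient PCs.

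*Derl3* was at 2436 and 2416 TPM in control PCs and 1569 and 1679 TPM in Mist1-deficient PCs. Both Mist1-deficient libraries were below both controls, a fall of 1.48-fold (log2 fold change -0.56 in limma, SE 0.075, adjusted p = 0.00521). *Herpud1* was at 2262 and 2038 TPM and 1593 and 1529.8 TPM and fell 1.36-fold. *Syvn1* was at 1134 and 1121 TPM and 918 and 912 TPM and fell 1.22-fold, and *Aup1*, at 610.5 and 567 TPM and 472 and 488 TPM, fell 1.21-fold. The adaptor *Sel1l* was at 720.4 and 680.0 TPM and 747 and 740.1 TPM and did not pass (log2 fold change 0.11 in limma, SE 0.070, adjusted p = 0.294). Its difference from *Syvn1* was not tested. Neither *Derl1* (log2 fold change 0.10), *Derl2* (log2 fold change -0.11) nor *Herpud2* (log2 fold change -0.23) passed. Outside the core, *Ubxn4* was at 344 and 311 TPM in control and 229.5 and 224 TPM in Mist1-deficient PCs and fell 1.42-fold. *Rnf139* was at 49.1 and 47.4 TPM and 34.9 and 36.8 TPM and fell 1.33-fold, and *Ngly1*, at 124 and 113 TPM and 99.4 and 89.4 TPM, fell 1.24-fold.

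The genes that rose were *Erlec1*, *Ufd1l*, *Stub1*, *Ubxn8* and *Erlin2*. The lectin *Erlec1* was at 169 and 156 TPM in control and 231 and 218 TPM in Mist1-deficient PCs and rose 1.40-fold (log2 fold change 0.48 in limma, SE 0.078, adjusted p = 0.00891). *Ufd1l* was at 115 and 121 TPM and 154 and 154 TPM and rose 1.32-fold. The other glycan-reading genes did not pass, and *Edem2*, the gene with the largest fall in Xbp1-deficient PBs, was at 1316 and 1125 TPM and 1264 and 1206 TPM, with a 95% interval of the log2 fold change from -0.22 to 0.30. *Vimp* and *Selk* did not pass either, with log2 fold changes of 0.19 and 0.036. *Stub1*, *Ubxn8* and *Erlin2* rose 1.27-fold, 1.23-fold and 1.18-fold, and *Ubxn8* was also among the genes that rose without Xbp1. None of the ubiquitin-conjugating enzymes passed, with log2 fold changes from -0.31 to -0.057, nor did *Vcp* (log2 fold change 0.11), *Nploc4* (log2 fold change 0.17) or *Faf2* (log2 fold change -0.00019).

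The calls in PCs rest on both Mist1-deficient libraries. Without Mist1-deficient replicate 1, 1 gene fell and none rose, and without replicate 2, none passed in either direction. Without control replicate 2, 11 genes fell, and without control replicate 1, 9 rose. Of the 29 ERAD genes with a common Mist1 region at a start site, 7 fell (24.1%) and 3 rose (10.3%). These shares were near those of all genes with a region, of which 21.1% fell and 12.2% rose. Of the 7 tested ERAD genes without a region, 0 fell and 2 rose, where 7.63% and 18.9% of all genes without one did. The mature B cell markers summed to 1014 to 1370 TPM in control and 802 to 881 TPM in Mist1-deficient PCs, although *Cd22*, *Pax5*, *Fcer2a*, *Cr2* and *Ciita* in the Mist1-deficient libraries lay between both controls. The T cell markers summed to 89.9 to 92.8 TPM and 101 to 130.0 TPM, and neutrophil markers to 459.8 to 988 TPM and 561 to 845 TPM. Their part in these changes was not tested. In the wider list, 5 genes fell and 13 rose of 61, where 16.2% of all genes fell and 13.3% rose.

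**Figure D4:**
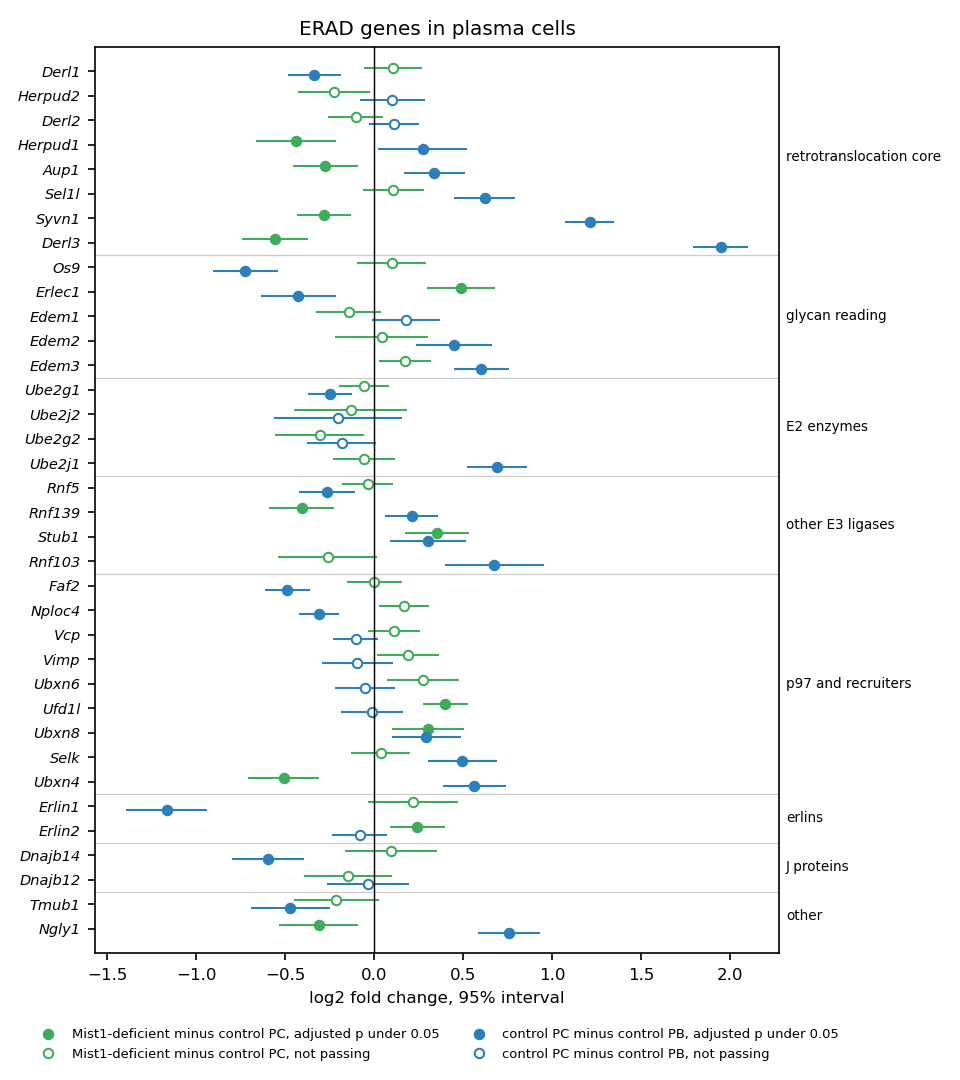
Log2 fold changes of 36 ERAD genes (x axis) with 95% intervals in Mist1-deficient against control PCs (green) and in control PCs against control PBs (blue), 2 libraries per group, with filled points for an adjusted p under 0.05. The green points lie between -0.56 and 0.48, and the blue points of *Syvn1* and *Derl3* lie at 1.21 and 1.95.

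Control PCs and control PBs differed in many genes, ERAD genes among them. Of 36 genes, 15 were higher (41.7%) and 10 lower (27.8%) in PCs, while 37.6% of all 13230 genes were higher and 38.4% lower. The share of higher ERAD genes was thus near that of all genes, and the share of lower ones was below it. The median log2 fold change of the 36 genes was 0.043. Stage, culture, sort, experiment and the genotype of the controls cannot be told apart in this comparison. Control PBs were *Xbp1* fl/fl, and control PCs were labelled wild type (*Bhlha15* fl/fl in the study's sample table). In TPM as deposited the median gene was 0.12 higher in PCs. *Derl3*, at 584 and 580.0 TPM in PBs and 2436 and 2416 TPM in PCs, was the gene called, with 3.85-fold more in PCs (log2 fold change 1.95 in limma, SE 0.068, adjusted p = 3.78e-08), and 7.77% of all genes were called higher. *Syvn1* was at 458 and 443 TPM and 1134 and 1121 TPM and was 2.31-fold higher in PCs. *Ngly1* (63.2 and 66.7 TPM in PBs, 124 and 113 TPM in PCs) was 1.69-fold and *Ube2j1*, at 678 and 643 TPM in PCs, 1.61-fold higher.

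Related genes differed in opposite directions between the stages. In the derlin family, *Derl3* was higher in PCs while *Derl1* was lower, with 326 and 310.1 TPM in PCs (log2 fold change -0.34 in limma, SE 0.066, adjusted p = 0.00123), and *Derl2*, at 94.0 and 106 TPM, did not pass. *Derl3* was the most abundant derlin at both stages, but by a far wider margin in PCs. Among the glycan-reading genes, *Edem3* (log2 fold change 0.60) and *Edem2* (log2 fold change 0.45) were higher in PCs, while *Os9*, at 803 and 755 TPM in PBs and 533 and 487 TPM in PCs, was lower (log2 fold change -0.72, SE 0.080), as was *Erlec1* (log2 fold change -0.43). *Erlin1*, at 27.6 and 28.3 TPM in PBs and 14.1 and 12.8 TPM in PCs, had the largest difference in this direction, with a log2 fold change of -1.17 (SE 0.10). *Dnajb14*, *Faf2*, *Tmub1*, *Nploc4*, *Rnf5* and *Ube2g1* were also lower in PCs. *Edem1* was at 2131 and 2131 TPM in PCs and did not pass (log2 fold change 0.18). The fibroblast genes were 18.6 to 22.8 TPM in sum in PCs and 999.6 to 1960 TPM in PBs. Other cell types had higher marker sums in control PCs than in control PBs, although *Cd68*, *Thy1* and *Ms4a1* were lower. Neutrophil markers summed to 459.8 to 988 TPM and 10.3 to 11.6 TPM, macrophage markers to 261 to 262 TPM and 135 to 137 TPM. The T cell list summed to 89.9 to 92.8 TPM and 42.4 to 50.5 TPM, the mature B cell list to 1014 to 1370 TPM and 950.3 to 984 TPM. The part of these markers was not tested. With any 1 library left out, 12 to 15 genes were higher and 9 to 11 lower. In the wider list, 29 of 61 genes were lower and 18 higher in PCs, where 38.4% of all genes were lower and 37.6% higher.

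The highest levels of *Derl3* over all 10 libraries were thus those of control PCs, followed by Mist1-deficient PCs, control PBs, *Bhlha15* CreER/CreER PBs and Xbp1-deficient PBs. Control and *Bhlha15* CreER/CreER PBs did not differ beyond their spread after scaling, with libraries that overlapped and an adjusted p of 0.697 from limma. The effect of Mist1 loss on *Derl3* was compared between the stages by an interaction. On the log2 scale it was -0.56 in PCs and -0.12 in PBs, each in the model of its stage, and the difference in the model of all 10 libraries was -0.43 in limma (SE 0.096, adjusted p = 0.0351). *Derl3* was the gene of 36 that passed this test, while 4.17% of all genes passed in the same direction and 1.94% in the other. The alleles and controls differ between the stages. The adjusted p ranged from 0.00332 to 0.143 over 19 alternatives and exceeded 0.05 in 11 of them, among these each one that left out a library other than *Bhlha15* CreER/CreER replicate 1 or control PC replicate 2. Of all genes that passed, 68.2% were lower after median scaling and 56.2% after quantile normalization. *Edem3*, *Sel1l* and *Erlec1* had differences in the opposite direction, 0.37, 0.37 and 0.45 on the log2 scale, and did not pass. In the wider list of 61 genes, none was lower and 2 were higher in this test.

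**Figure D5:**
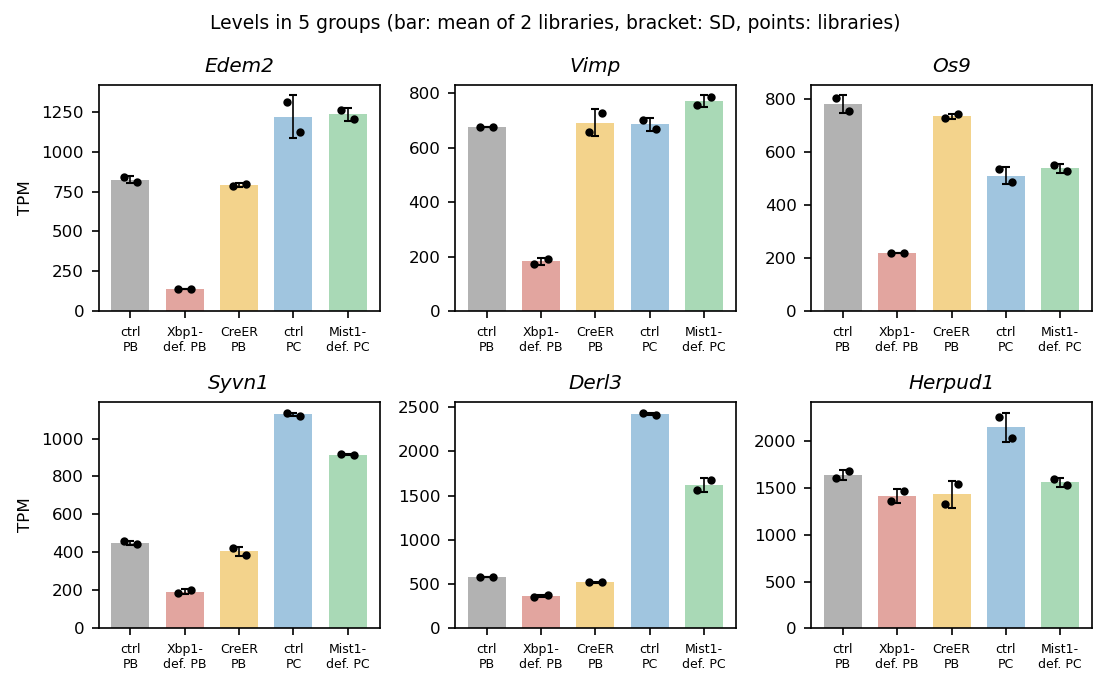
TPM (y axis, from 0) of 6 ERAD genes in the 5 groups, with bars for the mean of 2 libraries, brackets for the SD and points for the libraries. *Edem2*, *Vimp* and *Os9* are low in Xbp1-deficient PBs (ctrl, control; def., deficient; CreER, *Bhlha15* CreER/CreER), *Syvn1* and *Derl3* are highest in control PCs, and *Herpud1* varies least between the groups.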

How the data were processed

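RNA-seq of 6 PB and 4 PC libraries and 2 Mist1 Bio-ChIP-seq experiments were analysed from the deposited files. Per the study's methods, polyadenylated RNA was sequenced and the authors trimmed reads with cutadapt, aligned them to mm9 with STAR 2.4.2 and counted them with featureCounts 1.5, and the deposited TPM leave out immunoglobulin and T cell receptor genes. ChIP reads were aligned with Bowtie 1.0.0 and peaks called with MACS in each experiment, and the deposited peak lists hold positions only. TPM keep no depth, so that counting error is unknown. All tests were fitted over all genes with limma 3.58.1 (R 4.3.3, moderated with a trend, n = 2 per group), with 1 model for the 6 PB libraries, 1 for the 4 PC libraries and 1 for all 10. An exact permutation test of 2 against 2 libraries cannot go below p = 0.333. Genes called passed an adjusted p of 0.05, a fold of 3 and 5 TPM. The named genes are all members, with library values for the core, the glycan readers, the 12 largest changes without Xbp1 and the genes that changed most in PCs. The members and lists were chosen with earlier results of these data known. The files of both stages share 24189 names, and the other 543 names of the PC files are at 0 TPM throughout. Scripts were tested on simulated data. Alternatives were other scalings, pseudocounts of 1 and 0.01, filters of none and 5 TPM, 2 other variance moderations, a model of only the libraries compared, and leaving out each library.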

Additional observations from a re-analysis of the deposited data

Results flagged for a closer look

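*Derl3*, which encodes a derlin of the ER membrane channel, was the ERAD gene whose change with Mist1 loss differed between PCs and PBs by a test of the difference itself. The difference of both log2 fold changes was -0.43 in limma (SE 0.096, adjusted p = 0.0351), with changes of -0.56 in PCs and -0.12 in PBs, each in the model of its stage, with 2 libraries per group. It was 1 of 36 ERAD genes tested, a smaller share than the 4.17% of all genes that passed in the same direction, so that nothing about ERAD genes as a group follows from it. Over 19 alternatives it kept its direction, from -0.68 to -0.37, and exceeded an adjusted p of 0.05 in 11 of them. The PB allele is an inserted CreER and the PC allele a Cre deletion, so that stage and allele cannot be told apart.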

How the results depend on the processing

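No paired analysis was possible because replicate numbers were given in accession order and pair no libraries. Without scaling (TPM as deposited) and after quantile normalization, the genes higher in Xbp1-deficient than in control PBs numbered 7 and 5, with medians of -0.48 and -0.54, and 3 genes were called lower as deposited. Against *Bhlha15* CreER/CreER PBs, 7 and 4 genes were higher with medians of -0.26 and -0.43, none was higher in a model of only the libraries compared, and *Aup1* was reversed to 0.12 after quantile normalization. In PCs, 3 genes were lower and 2 higher without a variance trend. Between stages the median was 0.16 as deposited, 0.097 after quantile normalization and 0.10 with no filter. For the interaction, 3 genes were lower and 2 higher under each of both scalings (median 0.036 after quantile normalization), 0 were lower with no filter, without a trend and in a model of only the libraries compared, and 1 was higher at 5 TPM. The cause was not tested. With each library left out in turn, lower, higher and called genes and the median ranged over 20 to 26, 0 to 3, 5 and -0.69 to -0.64 for Xbp1-deficient against control PBs, and over 21 to 27, 0 to 1, 4 to 5 and -0.61 to -0.47 against *Bhlha15* CreER/CreER PBs. The median ranged from -0.11 to 0.064 for *Bhlha15* CreER/CreER against control PBs. The lower and higher genes and the median ranged over 0 to 11, 0 to 9 and -0.049 to 0.0089 in PCs, 9 to 11, 12 to 15 and 0.0094 to 0.075 between stages, and 0 to 2, 0 to 2 and -0.052 to 0.038 for the interaction. Of single-gene values under other settings, 1819 kept their side of the threshold, 33 of which passed in neither fit and had the other sign, 41 newly passed, 47 no longer passed and 1 reversed. With a library left out, 1404 kept their side, 61 of them with the other sign and passing in neither, 23 newly passed and 85 no longer passed. With 2 libraries per group and unknown read depth, small changes may not be detectable.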
